A study of Mus musculus with 6 samples.

Results

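Glutathione, sulfo and glucuronosyl transferases were compared between WT and *SYISL* KO leg muscle of mouse fetuses at embryonic day 18.5, with 3 WT and 3 KO samples. The genes were chosen by name and by a count minimum. They are the protein-coding genes of the glutathione transferase (*Gst*, *Mgst*), sulfotransferase (*Sult*) and glucuronosyltransferase (*Ugt*) families with at least 10 counts summed over the 6 samples. The rule gave 36 of the 56262 genes in the table, from 66 protein-coding genes with a matching symbol. The 36 genes were 21 cytosolic or mitochondrial *Gst*, 3 microsomal *Mgst*, 7 *Sult* and 5 *Ugt* genes. The KO fetuses lack *SYISL*, a lncRNA within an intron of the *Synpo2* gene, and no other allele, agent or treatment is named for either group. Parents of a fetus had the same genotype, so the genotype of the fetus and that of its mother and litter cannot be told apart. No gene in the table carried the symbol *SYISL*, and the deletion was not checked here.

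These enzymes make small molecules more soluble by attaching a group to them. Glutathione transferases join the tripeptide glutathione to electrophiles such as lipid peroxidation products. Sulfotransferases move sulfate from an activated carrier onto phenols, steroids and sterols. Glucuronosyltransferases move glucuronic acid from UDP-glucuronate onto bilirubin, phenols and drugs. The families are best known from liver, gut and kidney, but several members also serve skin, muscle and other tissues.

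Each sample held between 82054811 and 102233181 counts, at which a count of 0 allows a level of up to 0.0293 to 0.0366 CPM (counts scaled to a fixed library total) by counting error alone. Other CPM values below use totals corrected by TMM, a normalization that compares samples over most genes. Muscle fibre markers were present in every sample, with a summed level of 21570 to 24070 CPM in WT against 45320 to 55510 CPM in KO, and 11 of 12 rose. Markers of other cell types also moved. All 18 epidermal keratinocyte markers fell, and their summed level was 18890 to 27930 CPM in WT against 886 to 1028 CPM in KO. *Krt1* and *Krt10*, keratins of upper epidermal layers, held 9575 ± 1963 and 5837 ± 1582 CPM in WT against 215.5 ± 56.1 and 79.3 ± 23.9 CPM in KO (SD, n = 3 each), and *Krt2* was at 0 in every KO sample. Of 9 erythroid markers 8 fell, of 12 adipocyte markers 11 rose, and of 12 macrophage markers 8 rose. Of 12 endothelial and 12 fibroblast markers 1 each rose, and of 10 Schwann cell markers 1 rose and 2 fell. These counts use the call rule of the next paragraph. Without its fold threshold, 10 endothelial and 9 fibroblast markers were higher and none lower, and 7 Schwann cell markers were higher and 2 lower. Summed endothelial markers were at 874 to 899 CPM in WT against 1020 to 1075 CPM in KO. Summed fibroblast markers were at 41040 to 44090 CPM in WT against 49230 to 51210 CPM in KO. In bulk samples, fewer cells of a type and less RNA per cell cannot be told apart.

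Of the 36 transferase genes, 31 passed the filter on low counts and were tested with edgeR's quasi-likelihood test. A gene was called at a Benjamini-Hochberg adjusted p under 0.05 over all 22071 genes tested and a fold change over 1.5. In KO, 11 of the 31 fell (35.5%), beside 8.39% of all genes tested, and 5 rose (16.1%), beside 8.31% of all genes tested. The genes that fell did so by more than those that rose: 10 of the 11 fell by over 2-fold, 4 of them by over 8-fold, while none of the 5 rose by 2-fold. Without the fold threshold, 12 were lower (38.7%, against 23.1% of all genes) and 10 higher (32.3%, against 21.9%). The WT and KO values did not overlap for 25 of the 31 (80.6%), beside 55.9% of all genes tested. The median log2 fold change of the 31 was 0.02, and that of all genes was -0.0041, and the members lay on both sides of it. These counts include genes that share exons or sequence with others. Without the *Ugt1a* genes and *Gsta1*, 7 of 26 fell (26.9%) and 5 rose (19.2%). *Gsta1*, *Ugt1a1* and *Ugt1a6b* had under 10 counts in KO replicates 1 and 2, so their place among the genes tested rests on WT.

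**Figure D1:**
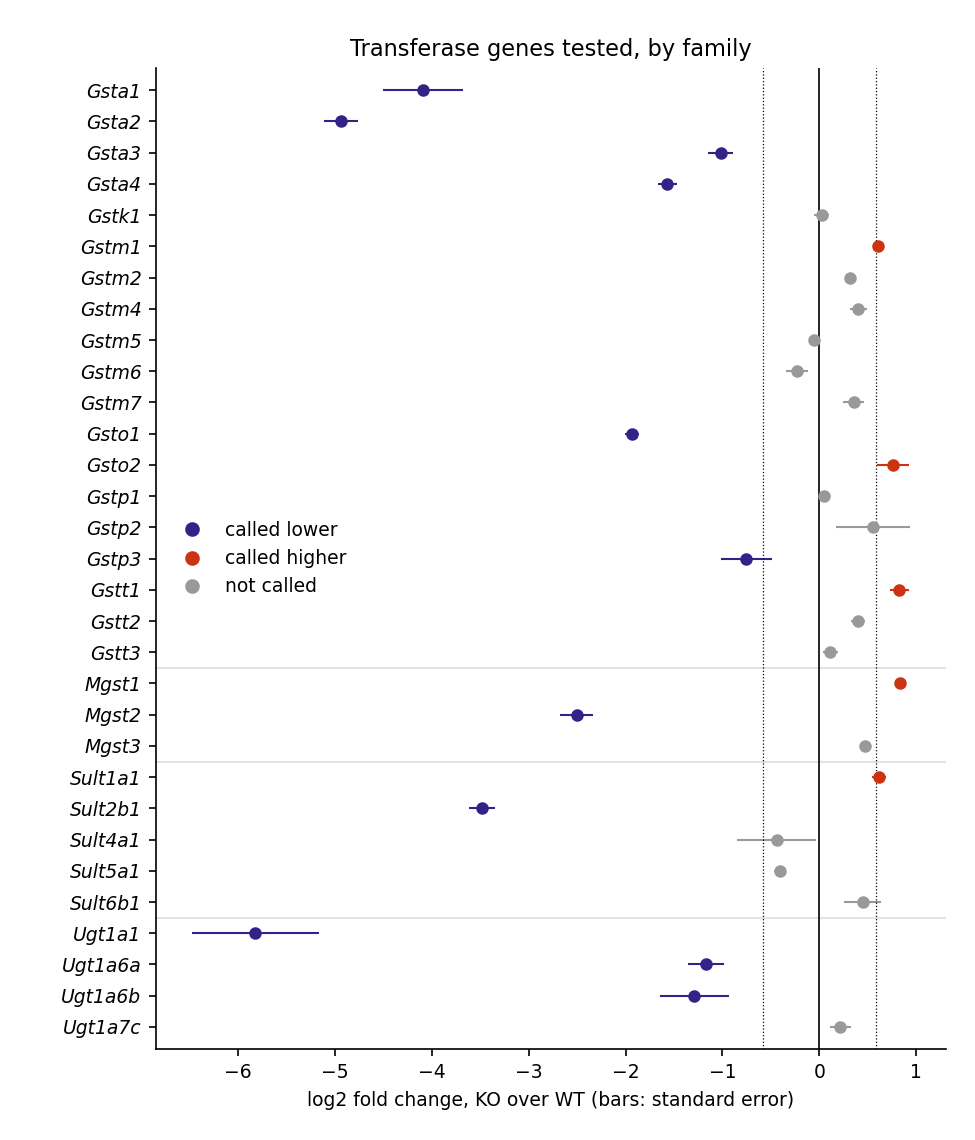
Log2 fold change of KO over WT with its standard error for the 31 transferase genes tested, grouped by family, with dotted lines at a fold change of 1.5. The 4 *Gsta* genes all lie below zero, and the *Gsto*, *Mgst* and *Sult* genes lie on both sides.

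The alpha class of glutathione transferases, which conjugates lipid peroxidation products and handles steroids, fell as a whole, 4 of 4. *Gsta2* was measured at 9.99, 13.4 and 9.87 CPM in the WT samples and 0.299, 0.336 and 0.442 CPM in the KO samples. Its log2 fold change was -4.94 (SE 0.18, adjusted p = 8.86e-08), a level of 3.26% of WT. *Gsta1* was at 1.80, 3.96 and 2.57 CPM in WT against 0.0960, 0.0944 and 0.288 CPM in KO, a change of -4.09 (SE 0.41, adjusted p = 4.15e-05). All KO values of both genes lay far below all WT values. *Gsta1* and *Gsta2* are close copies: 80.6% of the 100-base stretches of *Gsta1* transcripts also occur in *Gsta2* or the neighbouring gene models *Gm10639* and *Gm3776*, and 28.4% of those of *Gsta2* occur in the others, so the split of reads between them is uncertain. Their summed level was 13.9 ± 3.04 CPM in WT against 0.518 ± 0.184 CPM in KO (SD, n = 3 each). With the counts of *Gm10639* and *Gm3776* added, it was 16.2 ± 3.34 CPM in WT against 0.735 ± 0.185 CPM in KO, and any shared reads that were left uncounted are in neither sum.

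The similarity of the pair extends past the transcripts. The 250 bases upstream of the RefSeq start sites (GRCm38.p6, the assembly that mm10 names) are shown for both, since these neighbours fell together by the most among the glutathione transferases. The *Gsta2* window lies within the GENCODE M21 span of the gene, not before it. Capitals mark the longest run that both windows share, 29 bases. Of 234 bases aligned outside gaps, 190 were identical (81.2%), and the alignment also held 32 gap bases.
Gsta1, chr9:78230419-78230668, plus strand: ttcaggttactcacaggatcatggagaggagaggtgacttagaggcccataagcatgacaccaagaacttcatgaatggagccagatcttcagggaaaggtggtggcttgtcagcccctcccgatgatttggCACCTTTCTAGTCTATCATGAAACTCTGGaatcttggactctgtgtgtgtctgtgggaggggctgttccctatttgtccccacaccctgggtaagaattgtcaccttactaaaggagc
Gsta2, chr9:78347146-78347395, minus strand: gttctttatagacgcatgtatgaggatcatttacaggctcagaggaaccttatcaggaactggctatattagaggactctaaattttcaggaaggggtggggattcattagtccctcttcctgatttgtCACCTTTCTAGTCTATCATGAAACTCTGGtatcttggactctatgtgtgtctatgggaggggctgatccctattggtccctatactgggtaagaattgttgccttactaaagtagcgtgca

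*Gsta4*, an enzyme specialised in conjugating 4-hydroxynonenal, lies in the same cluster on chromosome 9. It was at 7.47, 7.89 and 6.68 CPM in WT against 2.51, 2.71 and 2.2 CPM in KO (log2 fold change -1.57, SE 0.10, adjusted p = 1.99e-06). *Gsta3*, which lies apart from the cluster on chromosome 1, was at 1.10, 1.06 and 1.09 CPM in WT against 0.533, 0.546 and 0.524 CPM in KO (-1.02, SE 0.13, adjusted p = 0.000191). No 100-base stretch of *Gsta3* or *Gsta4* transcripts occurred in another gene. The groups did not overlap for either gene.

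The omega class had one gene in each direction. *Gsto1*, a glutathione-dependent reductase of dehydroascorbate and other substrates, was the most counted transferase in WT. It was at 110.7, 134.4 and 109.9 CPM in WT against 31.1, 31.6 and 30.4 CPM in KO, with a log2 fold change of -1.93 (SE 0.08, adjusted p = 1.21e-07). *Gsto2*, which has the same kind of activity, starts 743 bases past the end of *Gsto1* on chromosome 19, on the same strand. It was at 0.465, 0.424 and 0.521 CPM in WT against 0.907, 0.798 and 0.699 CPM in KO, a change of 0.76 (SE 0.17, adjusted p = 0.00484). These neighbours share no 100-base stretch, and the groups did not overlap for either. *Gsto1* made up 25.5% to 28.9% of the counts of all 36 genes in WT and 8.58% to 8.87% in KO. Summed over the 36 genes, the level was 439 ± 22.7 CPM in WT against 356 ± 7.37 CPM in KO, and without *Gsto1* it was 321 ± 9.89 and 325 ± 7.00 CPM (SD, n = 3 each).

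**Figure D2:**
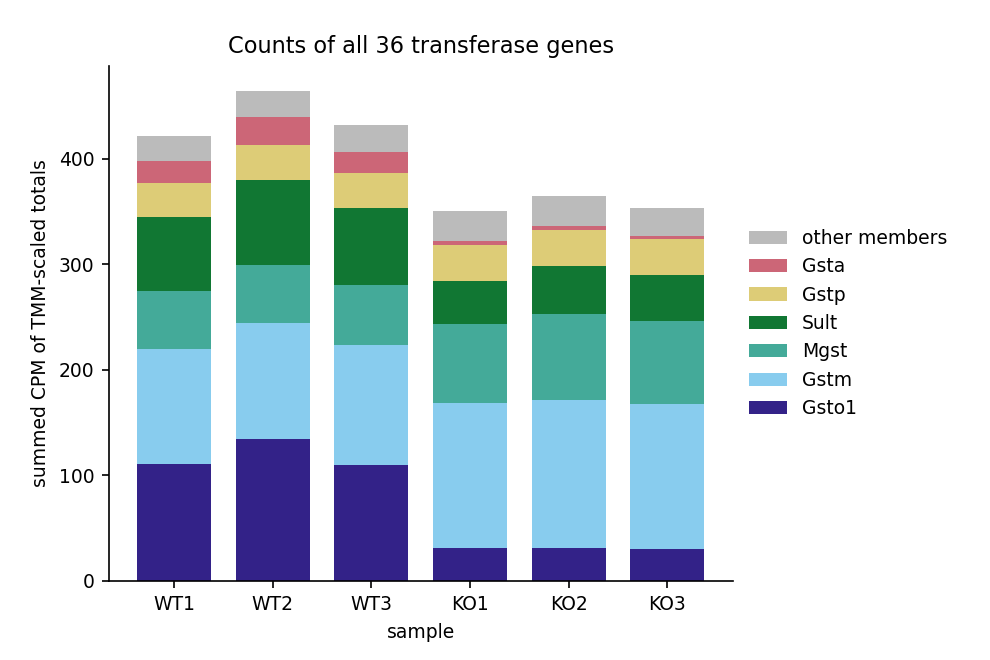
Summed CPM of the 36 transferase genes in each sample, stacked by gene group, with *Gsto1* at the base. The *Gsto1* block is 109.9 to 134.4 CPM high in WT and 30.4 to 31.6 CPM high in KO, while the *Gstm* block is larger in the KO samples (summed *Gstm*, 111 CPM in WT against 138 CPM in KO on average).

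In the mu, theta and pi classes, the called genes were *Gstm1* and *Gstt1*, which rose, and *Gstp3*, which fell. *Gstm1*, a general conjugating enzyme, was at 36.0, 35.8 and 37.6 CPM in WT against 53.8, 57.0 and 55.5 CPM in KO (log2 fold change 0.60, SE 0.04, adjusted p = 2.52e-06). This lies just past the fold threshold, and the change was under it without KO replicate 2 (0.58) and with library size only (0.54). *Gstt1*, whose enzyme conjugates small halogenated compounds, was at 3.26, 2.71 and 3.49 CPM in WT against 5.88, 5.46 and 5.47 CPM in KO (0.82, SE 0.10, adjusted p = 0.000131). In both genes every KO value lay above every WT value. *Gstm2*, *Gstm4*, *Gstm7* and *Gstt2* passed the adjusted p under the fold threshold, with log2 fold changes of 0.32, 0.40, 0.36 and 0.40. *Gstm7* no longer passed with library size only (adjusted p = 0.065). The same held for *Gstm7* without WT replicate 1, WT replicate 2 or KO replicate 3 (adjusted p = 0.081, 0.075 and 0.088). *Gstm5*, *Gstm6*, *Gstt3*, *Gstk1* and *Gstp1* did not pass, with log2 fold changes from -0.23 (*Gstm6*) to 0.11 (*Gstt3*), and the sign of *Gstm5*, *Gstk1* and *Gstp1* turned under another scaling.

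*Gstp3* was at 0.391, 0.218 and 0.322 CPM in WT against 0.192, 0.168 and 0.195 CPM in KO (-0.75, SE 0.26, adjusted p = 0.0424). The call was lost without WT replicate 1, WT replicate 3, KO replicate 1, KO replicate 2 or KO replicate 3 (adjusted p = 0.152, 0.110, 0.0790, 0.123 and 0.0969). It was also lost with DESeq2, limma-voom and upper-quartile factors (adjusted p = 0.162, 0.0599 and 0.0641). *Gstp2* varied widely within WT, at 0.317, 0.460 and 1.02 CPM in WT against 0.726, 1.21 and 0.750 CPM in KO (0.55, SE 0.38, adjusted p = 0.277). Without WT replicate 3 it was called higher, with a change of 1.21 and an adjusted p of 0.0137. *Gstp1* and *Gstp2* share 25.1% and 46.9% of their 100-base stretches with each other or with the pseudogene *Gstp-ps*. Summed, both together held 32.6 ± 0.422 CPM in WT against 34.0 ± 0.718 CPM in KO (SD, n = 3 each).

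The 3 microsomal transferases belong to another protein family, which also makes leukotrienes, and they differed among themselves. *Mgst2*, which can make leukotriene C4, was at 6.29, 8.64 and 7.14 CPM in WT against 0.992, 1.29 and 1.59 CPM in KO (log2 fold change -2.50, SE 0.17, adjusted p = 3.01e-06). *Mgst1*, a glutathione transferase and peroxidase of the endoplasmic reticulum and mitochondria, was at 25.7, 24.3 and 25.8 CPM in WT against 43.1, 45.6 and 45.8 CPM in KO (0.83, SE 0.04, adjusted p = 7.02e-07). *Mgst3* passed the adjusted p but not the fold threshold, at 23.3 ± 0.692 CPM in WT against 32.4 ± 2.18 CPM in KO (SD, n = 3 each). The WT and KO values did not overlap for any of the 3, nor did they for 55.9% of all genes tested.

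**Figure D3:**
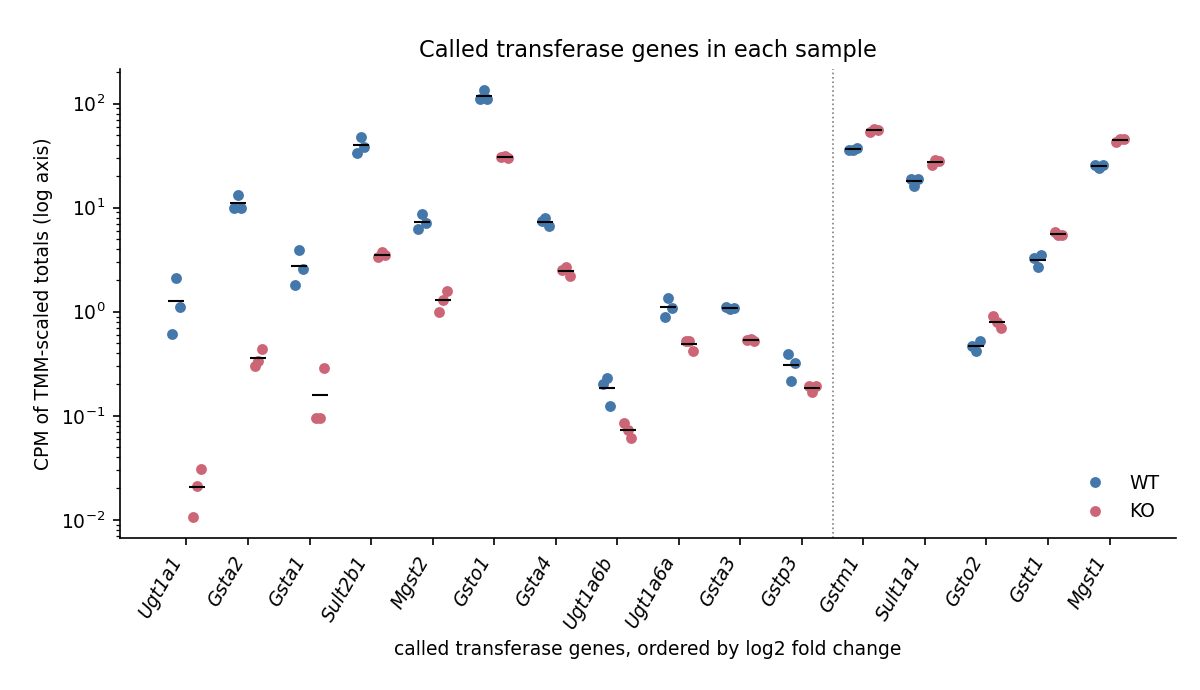
CPM of the 16 called transferase genes in each sample on a log axis, with WT in blue, KO in red and a black line at each group mean, ordered by log2 fold change. The groups do not overlap for any of the 16, which the choice of genes by adjusted p and fold change favours. *Ugt1a1* in KO, at 0.0107 to 0.0308 CPM, is the lowest.

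Among the sulfotransferases, *Sult2b1* fell and *Sult1a1* rose. *Sult2b1*, whose enzyme sulfates cholesterol and is known for its role in epidermis, was at 33.4, 47.9 and 37.9 CPM in WT against 3.38, 3.71 and 3.55 CPM in KO. Its log2 fold change was -3.48 (SE 0.13, adjusted p = 1.07e-07), or 8.94% of the WT level. *Sult1a1*, a sulfotransferase of simple phenols, was at 19.1, 16.2 and 18.9 CPM in WT against 25.8, 28.9 and 28.2 CPM in KO (0.61, SE 0.07, adjusted p = 0.000122). Leaving out WT replicate 2 or KO replicate 2 brought *Sult1a1* under the fold threshold, at 0.54 and 0.58, as did scaling by library size only, at 0.54. *Sult5a1* passed the adjusted p at a smaller change, at 14.8 ± 0.789 CPM in WT against 11.2 ± 0.427 CPM in KO (SD, n = 3 each, log2 fold change -0.40). *Sult4a1*, a member best known from brain, and *Sult6b1* did not pass (adjusted p = 0.422 and 0.0916).

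*Sult1d1*, a sulfotransferase of catecholamines and other small phenols, did not pass the filter on low counts, and its reads lay in few samples. It had 238, 0 and 66 counts in WT replicates 1, 2 and 3 and 0, 1 and 3 counts in the KO samples, so 77.3% of its counts came from WT replicate 1. The ratio of WT to KO was 76.9 with a 95% exact binomial interval of 29.7 to 284, which covers counting error only and not the spread among the WT samples. A rule written after these counts were seen was met by 28 genes, *Sult1d1* among them, with at least 60 counts in WT replicate 1 and at most 10% of that count in WT replicate 2 and each KO sample. They include *Prap1* (9906, 19 and 2562 counts in the WT samples, then 3, 208 and 233 in KO), known from the pregnant uterus and gut, and *Tpbpa* (629, 20 and 191 counts in the WT samples, then 10, 45 and 50 in KO), a marker of placental trophoblast. For the 28, the count in WT replicate 3 was 5.36% to 40% of that in WT replicate 1, with a median of 28.3%, beside 27.7% for *Sult1d1*. The source of these reads was not tested.

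The glucuronosyltransferases tested were all *Ugt1a* genes, which use separate first exons and share the exons that follow. *Ugt1a1*, the enzyme that conjugates bilirubin, had 58, 173 and 117 counts in the WT samples but 1, 2 and 3 counts in KO. Its fitted log2 fold change was -5.82 (SE 0.66, adjusted p = 8.37e-05), and the ratio of WT to KO was 58.7, with a 95% exact binomial interval of 26.7 to 161 for counting error. *Ugt1a6a* was at 0.887, 1.34 and 1.09 CPM in WT against 0.523, 0.525 and 0.421 CPM in KO (-1.17, SE 0.19, adjusted p = 0.000845). *Ugt1a6b* was at 0.201, 0.230 and 0.123 CPM in WT against 0.0854, 0.0734 and 0.0617 CPM in KO (-1.29, SE 0.36, adjusted p = 0.0155). Its call was lost without WT replicate 2 (adjusted p = 0.0529), without KO replicate 3 (0.0623) and with DESeq2 (0.0661). Both genes encode enzymes of small phenols, and neither had overlapping groups.

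*Ugt1a7c* went the other way but did not pass, at 3.34, 4.30 and 3.44 CPM in WT against 4.45, 4.09 and 4.31 CPM in KO (0.22, SE 0.11, adjusted p = 0.124), and its groups overlapped. How reads on the shared exons were assigned is not stated. *Ugt1a10*, which overlaps *Ugt1a1* exons, had 0 counts in every sample. *Ugt1a2*, *Ugt1a5*, *Ugt1a8* and *Ugt1a9*, which also overlap them, had 4, 8, 4 and 2 counts over all samples. Reads on exons shared with *Ugt1a1* were thus mostly not counted for these genes. In the annotation used here, 82.7% of the exon bases of *Ugt1a1*, 50.3% of *Ugt1a6a*, 60.6% of *Ugt1a6b* and 54.6% of *Ugt1a7c* lie in exons of other genes. *Ugt1a1* has 385 bases of its own, and *Ugt1a7c* has 1915, of which 998 lie past the end of the other *Ugt1a* models. Summed over the *Ugt1a* genes, the level was 5.04, 7.96 and 5.76 CPM in WT against 5.07, 4.71 and 4.82 CPM in KO. These sums overlapped between the groups, and *Ugt1a7c* carried the largest share of them. The sums may leave out reads on shared exons, so they are not a measure of the whole locus.

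Levels of different genes were compared per kilobase of annotated exon. In WT, *Gsto1* was highest at 58.5 CPM per kb, followed by *Gstm5* (26.9), *Gstm1* (24.7), *Mgst3* (21.2), *Gstp1* (20.7) and *Gstm2* (17.7 CPM per kb). The SDs of *Mgst3* and *Gstp1* overlapped in WT (0.631 and 0.0883 CPM per kb), and those of the other neighbours did not. In KO, *Gstm1* led at 37.6 CPM per kb, followed by *Mgst3* (29.5) and *Gstm5* (25.9), while *Gsto1* stood at 15.3 CPM per kb. *Mgst1*, *Gstm2* and *Gstp1* lay within 21.4 to 22.3 CPM per kb in KO, with overlapping SDs (0.752, 0.934 and 0.487 CPM per kb). Of the genes that fell by over 8-fold, *Sult2b1* and *Gsta2* were near 10 in WT (10.1 and 9.42 CPM per kb). *Gsta1* and *Ugt1a1* had lower values (2.90 and 0.572 CPM per kb). These values divide by all annotated exon bases, of which only 385 in *Ugt1a1* lie in no other gene. Reads on its shared exons may be left uncounted, so its value may be too low. The split of reads between *Gsta1* and *Gsta2* is also uncertain. The order of *Gsta1* and *Ugt1a1* is therefore not settled by these values.

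The remaining members that did not pass the filter, *Gstm3*, *Gstt4*, *Sult6b2* and *Ugt3a2*, stayed at or below 0.0944 CPM in every sample. Of the 30 genes with a matching symbol and under 10 counts, 14 were *Sult* and 16 *Ugt* genes. They include the liver families *Sult2a* and *Ugt2b*, of which no gene had more than 2 counts in a sample. Liver markers were low, with a summed level of 1.44 to 16.1 CPM in WT against 3.43 to 7.19 CPM in KO, and 9 of the 11 found stayed under 1 CPM in every sample. Of the 6 liver markers tested, *Apoc3* rose, with 0 counts in each WT sample and 23, 56 and 42 counts in KO.

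Within WT, the order of the samples was set beside that of the keratinocyte markers. WT replicate 2 had the highest and WT replicate 1 the lowest level of 15 of the 18 keratinocyte markers. The same order was seen for 5 of the 11 transferases that fell (45.5%, *Gsta1*, *Mgst2*, *Sult2b1*, *Ugt1a1* and *Ugt1a6a*), and for 57% of all 1852 genes that fell. WT replicate 2 was highest for 9 of the 11, beside 75.8% of all genes that fell. The exceptions were *Gsta3* and *Gstp3*, which were lowest in WT replicate 2. Among the 5 transferases that rose, WT replicate 2 was lowest for all 5, as it was for 10 of 11 adipocyte markers that rose and 52.4% of all 1835 genes that rose. For *Gstm1*, WT replicates 1 and 2 were nearly equal, at 35.96 and 35.81 CPM. Summed muscle fibre markers were also lowest in WT replicate 2 (24070, 21570 and 23540 CPM in the WT samples). Summed macrophage markers were lowest in WT replicate 1 (321, 333 and 345 CPM). The part of the keratinocyte, erythroid, adipocyte, macrophage and muscle fibre signals in these results was not tested.

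**Figure D4:**
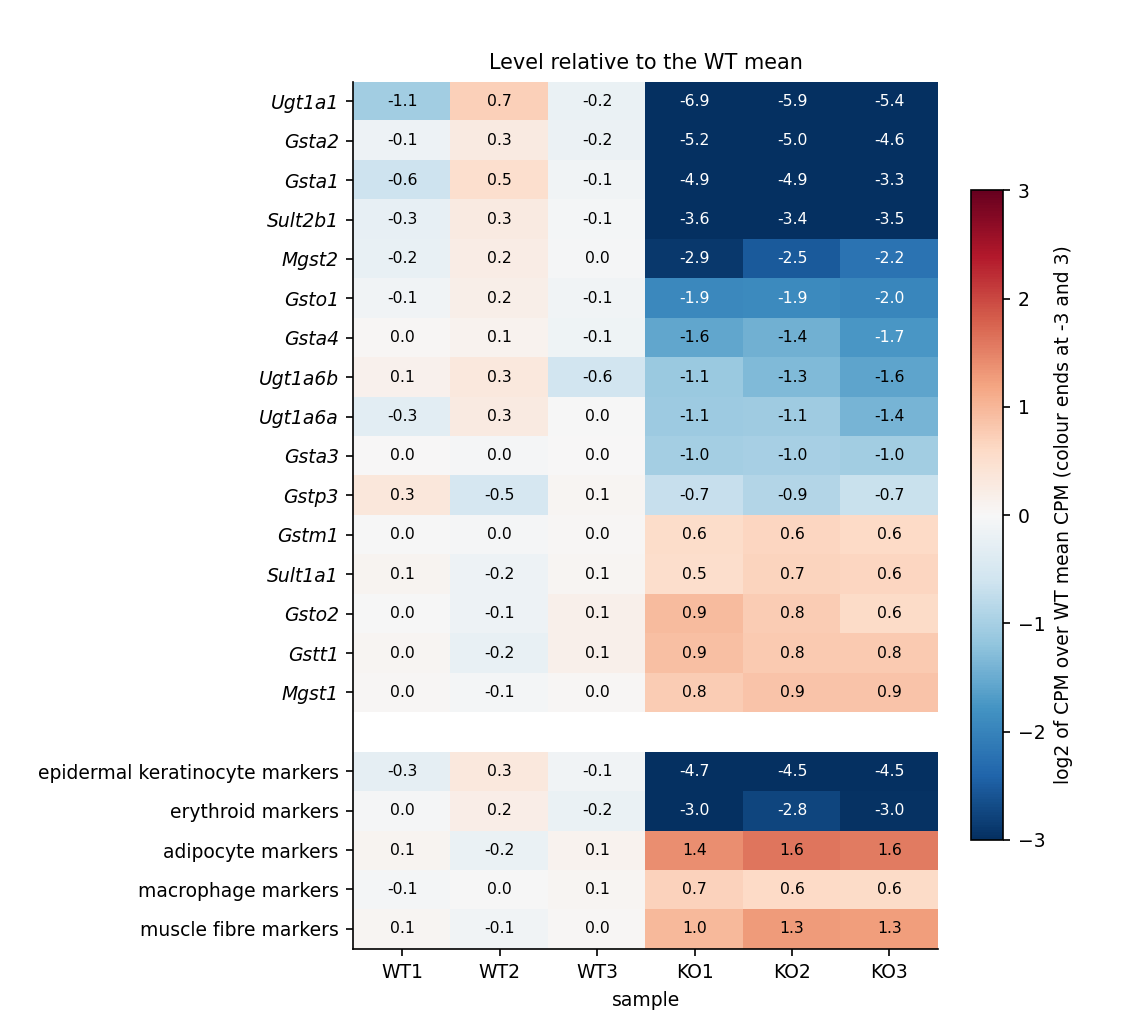
Log2 of the level in each sample over the WT mean for the 16 called transferase genes and, below the gap, for the summed CPM of 5 marker lists. Keratinocyte markers are highest in WT2 and low in all KO samples, as are the transferase rows from *Ugt1a1* down to *Gsto1*.

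Genes that supply, regulate or follow these enzymes were taken from 7 lists. Counts of called genes in them stand beside 8.31% of all genes tested that rose and 8.39% that fell. Of 21 tested genes of glutathione synthesis and turnover, 5 fell and 3 rose, with a median log2 fold change of -0.03. *Slc7a11*, the cystine importer, went from 11.5 ± 2.25 to 0.404 ± 0.0687 CPM (-4.82, adjusted p = 1.05e-07), and *Ggct*, a glutamylcyclotransferase, from 113 ± 11.8 to 10.6 ± 0.621 CPM (-3.42, adjusted p = 1.40e-08). *Ggt6* (-3.79), *Chac1* (-3.04) and *Glrx* (-2.17) also fell, while *Ggt1* (0.78), *Ggt5* (0.72) and *Dpep1* (0.96) rose. The abundant *Anpep* and *Slc3a2* were not called, with log2 fold changes of 0.42 and -0.32.

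Of 19 other glutathione enzymes, 2 fell and 3 rose, with a median of 0.09. *Gpx1*, a glutathione peroxidase, fell by 0.66 on the log2 scale, and *Ptges* fell by 0.63. *Ltc4s*, the main leukotriene C4 synthase and a relative of *Mgst2*, rose from 0.735 ± 0.0907 to 1.77 ± 0.190 CPM (1.27, adjusted p = 8.14e-05), and its partner *Alox5ap* rose by 0.78 on the log2 scale. *Clic5* rose by 1.78 on the same scale, while *Clic1* and *Clic4* were not called (-0.01 and 0.32).

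NRF2 is a transcription factor that drives many *Gst* genes under oxidative stress. Of 28 of its regulators and other targets, 3 were called and the median log2 fold change was 0.02. *Hmox1* (-0.92), *Txnrd1* (-0.84) and *G6pdx* (-0.68) fell, and 11 of the 28 were higher and 7 lower by the adjusted p alone. The most abundant genes not called were *Fth1* (0.35) and *Prdx1* (-0.16). Of 13 xenobiotic receptors and partners tested, 4 rose (*Ahrr*, *Ppara*, *Nr1h3* and *Cyp1b1*, by 0.91 to 1.17 on the log2 scale), and *Rxra* and *Arnt* were not called (-0.39 and 0.06).

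The remaining lists covered cofactor supply and efflux. Of 21 genes of sulfate activation and transport, the sulfate carrier *Slc26a2* fell (-0.99), *Slc13a4* rose (1.76), and *Sulf2* and *Impad1* were not called (-0.05 each). Of 16 genes of UDP-glucuronate supply and glucuronide handling, 2 were called, *Pgm1* (1.01) and *B3gat1* (0.65), which rose. *Ugp2* and *Ugdh* were not called (0.57 and 0.22). By the adjusted p alone, 5 of the 16 were higher and 1 lower. Their summed level was 654 to 699 CPM in WT against 849 to 962 CPM in KO. Among the efflux transporters, *Abcc2* rose (1.77) and *Abcb1b* fell (-2.14). *Abcb1b* was at 29.0, 3.41 and 8.74 CPM in WT against 3.34, 2.99 and 3.03 CPM in KO, and its order within WT was that of *Sult1d1*. The median log2 fold change of these 3 lists was 0.02, 0.04 and 0.10.

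**Figure D5:**
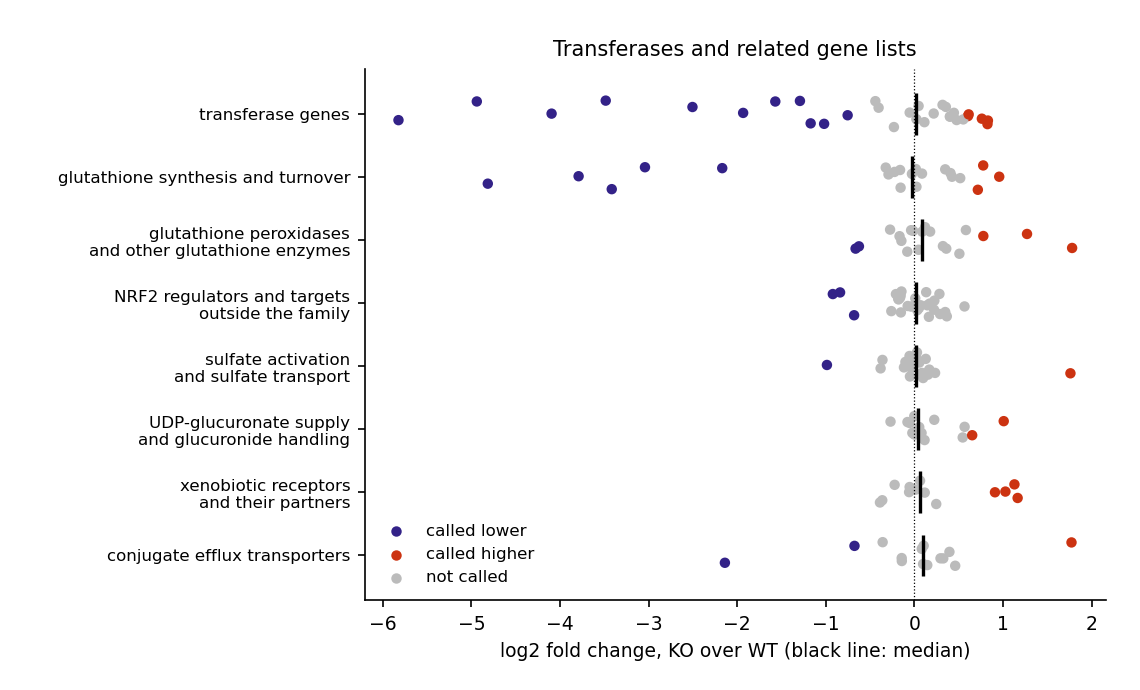
Log2 fold change of KO over WT for the 31 transferase genes and the tested genes of 7 related lists, 1 point per gene, with a black line at each median. The medians lie between -0.03 and 0.10, and falls past -3 occur among the transferases and in glutathione synthesis and turnover.

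The promoters of the members were read for 2 short motifs in the 250 bases upstream of RefSeq starts, on both strands. A promoter was found for 31 of the 36 genes, with 40 promoters in all, since some genes have more than 1. The antioxidant response element core, TGACNNNGC, through which NRF2 acts, was found in 4 of the 40 promoters, from 4 genes. It was found in 10.2% of 32851 mouse promoters. The 4 genes are *Gsta3*, which fell, *Mgst1*, which rose, and *Gstm5* and *Gstm7*, which were not called. In *Gstm7* and *Mgst1* the motif was in 1 of 2 RefSeq promoters, and its window lies within the GENCODE span of the gene. The windows are shown since these 4 genes moved in different ways, with the motif in capitals (on the opposite strand in *Mgst1*).
Gsta3, chr1:21240454-21240482, plus strand: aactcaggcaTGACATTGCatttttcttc
Gstm5, chr3:107895802-107895830, plus strand: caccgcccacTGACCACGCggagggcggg
Gstm7, chr3:107931725-107931753, minus strand: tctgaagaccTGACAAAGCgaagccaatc
Mgst1, chr6:138140461-138140489, plus strand: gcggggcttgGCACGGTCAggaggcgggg

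The xenobiotic response element core, GCGTG, which the aryl hydrocarbon receptor binds, was found in 9 of the 40 promoters, from 8 genes. It was found in 28.2% of all mouse promoters. It overlaps the antioxidant motif on the opposite strand in *Gstm5*. The 8 genes were *Gsta2*, *Gstp3* and *Sult2b1*, which fell, *Gstm1*, which rose, *Gstm5*, *Gstp1* and *Mgst3*, which were not called, and *Sult1d1*, which was not tested. In *Gsta2* it lies 3 to 7 bases before the RefSeq start. The promoter windows of *Gsta2* and *Sult2b1* lie within the GENCODE spans of these genes. A match in these windows is a description of letters only.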

How the data were processed

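Leg muscle RNA of 3 WT and 3 *SYISL* KO fetuses was sequenced. The authors trimmed reads with Trim Galore 0.6.6, mapped them to mm10 with HISAT2 2.2.1 and counted them per gene with featureCounts 2.0.1, per the submitters' processing notes. Whole-number counts of reads per gene, not normalized, were deposited. The annotation, the strand setting and the handling of reads shared by genes are not given in the sources used here. Symbols came from GENCODE M21, where 55227 of 56262 gene IDs were found.

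Counts were analysed with edgeR 4.0.16 in R 4.3.3 (filterByExpr, TMM, quasi-likelihood F-test on genotype), with Benjamini-Hochberg adjustment over 22071 genes and thresholds of 0.05 and a fold change of 1.5. DESeq2 1.42.0, limma-voom (3.58.1), other scalings and filters, and leaving out each sample were alternatives. The members, lists and tests were chosen with earlier results of these data known. All members could be named, and of each list the called genes and up to 2 abundant others. On simulated data of 22071 genes with 200 changed 2-fold, edgeR found 180 of the 200 by adjusted p alone, and called 9 unchanged genes. The simulation gave all genes the same dispersion and did not apply the fold threshold. Counts of 2 samples of 1 group gave a chi-square averaging 4.85 to 32.9 over genes, above the counting noise. Whether samples came from separate litters is not stated, so p-values measure the spread between these samples. Sequences are from RefSeq (GRCm38.p6). The values of 1 listed gene are not reported here.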

Additional observations from a re-analysis of the deposited data

How the results depend on the processing

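Of 430 refitted log2 fold changes of single members, 408 kept their direction and stayed called or not called, 17 lost the call and 1 gained it. The other 4 turned sign and were not called: *Gstk1* with library size only (-0.0466) and in the range over fits that leave out 1 sample (-0.0551 without KO replicate 2 to 0.0740 without KO replicate 3), *Gstp1* with library size only (-0.0208), and *Gstm5* with upper-quartile factors (0.0141). The number of members higher in KO, 5, went to 3 with library size only (*Gstm1* and *Sult1a1* lost), 10 with no fold threshold and 0 at a fold change over 2, and ranged from 3 to 6 when 1 sample was left out. The number lower in KO, 11, ranged from 10 to 11 when 1 sample was left out, and was 8 when at least 10 counts were asked of every sample, since *Gsta1*, *Ugt1a1* and *Ugt1a6b* were then not tested. *Sult1d1* was called lower with DESeq2, with no filter, and in 3 of the leave-one-out fits. Whether same-numbered samples are paired is not stated. Deviations of same-numbered samples from their group means correlated at -0.20, -0.13 and 0.05. With 3 samples per group, these values cannot decide the question. With a replicate block, 10 members were lower and 5 higher, and *Gstp3* was not called (adjusted p = 0.0532). Genes of a few counts, such as *Ugt1a1* in KO, are limited by depth. The cause of the other changes was not tested.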
